A study of Mus musculus with 12 samples.

Results

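Olfr920 (ENSMUSG00000061039, also named MOR165-6) is a mouse olfactory receptor gene, and it was followed here across 4 groups of cultured macrophages. It is 1 of the 54532 genes in the deposited tables and was found there by its gene symbol. The gene was chosen by its counts in the antibody comparisons, as one with a large fall under neutralization of integrin α5 (ITGA5), so its difference between antibody and control is given below as a description, without a test. Bone marrow macrophages came from wild-type C57BL/6J mice aged 2 to 3 months and were grown in CSF-1, the cytokine that drives macrophage differentiation. All 4 groups were exposed to an antibody at 10 µg/ml for 24 h. The antibody was either an isotype IgG or a neutralizing anti-ITGA5, and each was used on plain dishes (without fibronectin) and on dishes coated with 10 µg/ml of fibronectin (with fibronectin), the matrix ligand of the α5β1 integrin. Each group held 3 libraries of poly(A) RNA. The study calls its replicates independent experiments, and the labels do not say whether each came from its own animal, so p-values measure the spread between these libraries.

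Olfactory receptors are G protein-coupled receptors that sensory neurons of the nose use to detect odorants. Each such neuron expresses 1 receptor allele, and the signal passes through the stimulatory G protein subunit Gnal, adenylyl cyclase 3, cyclic AMP and a cyclic nucleotide-gated channel. Some receptors of this family are also transcribed outside the nose, including in macrophages. The odorant that Olfr920 binds is not given in the sources used here. Many receptor genes lie side by side in clusters and resemble each other in sequence, so reads may be hard to place.

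Olfr920 spans chr9:38752299-38760117 on the plus strand of GRCm38. It has 1 annotated transcript (GENCODE M21) with 2 exons that total 5711 bases, the same length that the deposited tables give. The whole coding sequence, 930 bases and 310 codons before the stop, lies in exon 2 at chr9:38755690-38756619 and makes up 16.3% of the exonic length. The 5′ UTR holds 1283 bases over both exons, and the 3′ UTR holds 3495. The tables give 1 number for the whole gene and do not say which of these parts the reads fell on. RefSeq draws a shorter gene that starts 497 bases later and ends 3254 bases earlier. The closest relative by the translated coding sequence was Olfr921, which is also the next receptor gene along the chromosome, with 80.6% identical residues. Olfr914 followed at 79.7% and Olfr910 at 78.3%, and the median over 1142 receptors was 42.3%. No other receptor reached 90%. The stretch of 150 coding bases below is shown because it is the one where Olfr920 and its nearest relative, Olfr921, are most alike over the length of a read. Both are written 5′ to 3′ on the plus strand from the GRCm38 transcripts, and capitals mark the bases that differ. The stretch covers chr9:38756116-38756265 in Olfr920 and chr9:38775683-38775832 in Olfr921.
Olfr920: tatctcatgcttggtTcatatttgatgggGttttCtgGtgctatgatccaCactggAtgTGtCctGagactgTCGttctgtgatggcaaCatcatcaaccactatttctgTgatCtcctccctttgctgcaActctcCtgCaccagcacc
Olfr921: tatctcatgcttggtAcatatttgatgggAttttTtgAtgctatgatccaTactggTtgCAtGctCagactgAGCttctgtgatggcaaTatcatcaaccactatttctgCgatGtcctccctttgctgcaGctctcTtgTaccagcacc
Even in this window 19 of 150 bases differed, and the longest run shared by the coding sequences was 38 bases. With Olfr914 the most alike window of 150 bases had 13 differences and the longest shared run was 60 bases, and Olfr914 was listed at 0 counts in every library. No transcript of another gene matched the coding sequence or the 5′ UTR of Olfr920 over at least 100 bases at 95% identity. In the 3′ UTR 410 bases, 11.7% of it, matched transcripts of 54 other genes at that cut, of which 6 had at least 10 counts over all libraries. At 90% identity the matching part of the 3′ UTR grew to 616 bases, shared with 509 genes, of which 314 had at least 10 counts. How reads from these stretches were placed was not tested.

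Olfr920 was detected in every library, at a low level. In IgG without fibronectin the 3 libraries held 89, 120 and 88 counts. In IgG with fibronectin they held 89, 87 and 91 counts. In anti-ITGA5 without fibronectin the counts were 24, 22 and 17. In anti-ITGA5 with fibronectin they were 12, 22 and 21. Every IgG library was above every anti-ITGA5 library on both coatings, and the lowest IgG library had more than the highest anti-ITGA5 library also after division by the library total. All 12 libraries together gave 682 counts, from totals of 12954342 to 22075432 counts on genes per library. CPM below is the count per 1000000 counts of the same library. Exact Poisson 95% intervals, which cover counting error only, show the precision of single libraries. The lowest count, 12, had an interval of 0.320 to 1.083 CPM, and the highest, 120, one of 5.65 to 8.15 CPM.

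**Figure D1:**
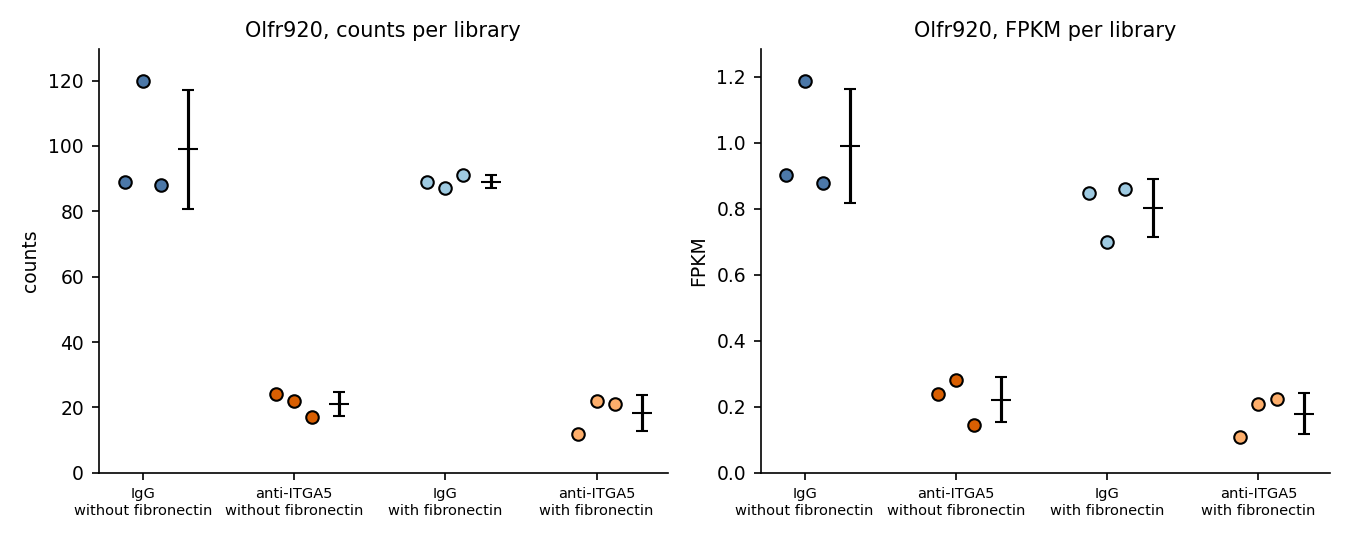
Counts (left) and FPKM (right) of Olfr920 in each of the 12 libraries, by group. Points are libraries and bars are the mean and SD of 3. The IgG libraries sit at 87 to 120 counts and the anti-ITGA5 libraries at 12 to 24.

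On the FPKM scale, which divides the count by gene length and depth, Olfr920 was highest in IgG without fibronectin at 0.990 ± 0.172 FPKM (SD, n = 3). IgG with fibronectin followed at 0.802 ± 0.0887 FPKM. Anti-ITGA5 without fibronectin stood at 0.221 ± 0.0691 FPKM and anti-ITGA5 with fibronectin at 0.179 ± 0.0619 FPKM. The wide step in this order lay between the IgG and the anti-ITGA5 groups, and within each antibody the coatings lay closer together. At its highest mean Olfr920 was above 53.7% of the genes with a value over 0 in that group, and in anti-ITGA5 with fibronectin it was above 35.8% of them.

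The first comparison addressed what ITGA5 neutralization did to macrophage transcripts on uncoated dishes. Olfr920 was 4.31-fold lower in anti-ITGA5 than in IgG by mean CPM, and its edgeR log2 fold change was -2.18 (SE 0.274, n = 3 per group). The lowest IgG library was 2.94-fold above the highest anti-ITGA5 library in CPM. Among the 12924 genes tested, 20.8% passed an adjusted p-value of 0.05 in either direction and 9.79% were lower, and the log2 fold change of Olfr920 was the number 3 from the most negative. Its place in that list follows from how it was chosen. With fibronectin Olfr920 was 4.35-fold lower by mean CPM, with a log2 fold change of -2.17 (SE 0.249). Here the gap between the lowest IgG and the highest anti-ITGA5 library was 3.07-fold. Of 12916 genes tested, 27.6% passed and 13.2% were lower, and Olfr920 was number 8 in the same order. The coatings do not share libraries, so these are 2 separate sets of 6. In bulk RNA, fewer cells with the transcript and less transcript per cell cannot be told apart.

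The gene was not chosen by its fibronectin difference, so this comparison was tested. It uses the same libraries as the antibody comparisons that chose the gene, so its p-values are not fully independent of that choice. In IgG, the mean of Olfr920 was 5.64 ± 1.02 CPM without and 4.49 ± 0.478 with fibronectin (SD, n = 3). The libraries without fibronectin, from 4.99 CPM, were all above those with it, up to 4.81, though the raw counts of the groups overlapped. The edgeR log2 fold change was -0.32 (SE 0.159), with an unadjusted p of 0.0641 and an adjusted p of 0.535 over all genes tested. Only 0.449% of the 12925 genes tested passed in that comparison, 0.124% as lower, and Olfr920 was not among them. In anti-ITGA5 the log2 fold change for fibronectin was of similar size at -0.31 but less certain (SE 0.395, edgeR adjusted p = 0.979). The anti-ITGA5 libraries overlapped, from 0.839 to 1.70 CPM without and from 0.620 to 1.28 with fibronectin. No gene passed there (0% of 12863 by edgeR), while 461 had an unadjusted p under 0.05 and DESeq2 called 5.

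The interaction term sets the antibody difference of Olfr920 on one coating against that on the other. It is made of the same differences that chose the gene, so it is given without a test. The log2 difference between the antibody effects was 0.02 (SE 0.430). Over all genes, 0.0223% of 13455 passed in the interaction. The sign of the Olfr920 value turned under other processing, as given in the closing section.

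The genes around Olfr920 were examined next, since reads from a transcribed neighbour could be counted on it. Within 500 kb lay 69 other genes, and 53 of them were olfactory receptor genes. None overlapped Olfr920 on either strand. Of the 69, 65 were listed at 0 counts in every library and 4 had any count. Olfr920 was the one receptor gene of this stretch with more than 6 counts in all.

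**Figure D2:**
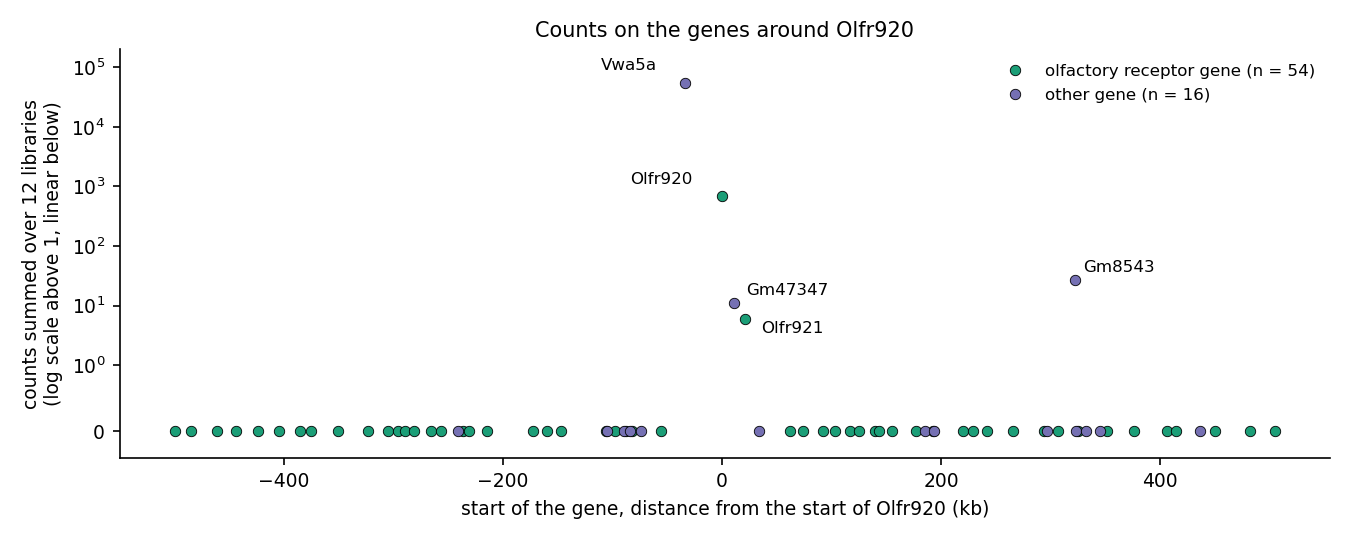
Counts summed over the 12 libraries for Olfr920 and the 69 other genes within 500 kb, against the distance of each gene's start from that of Olfr920. The vertical axis is logarithmic above 1 and linear below. Vwa5a (54561 counts) and Olfr920 (682 counts) stand above all other genes of the window, nearly all of which are at 0.

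Vwa5a (ENSMUSG00000023186), which encodes a protein with a von Willebrand factor A domain, was the one abundant neighbour and the nearest gene on the upstream side. It lies at chr9:38718268-38743337 on the same strand and ends 8.96 kb before Olfr920 starts. None of its 7 annotated transcripts runs into Olfr920. Its counts were 4261, 4293 and 4048 in IgG without fibronectin and 4869, 3746 and 5103 in anti-ITGA5 without fibronectin. With fibronectin they were 4394, 5441 and 4532 in IgG and 4846, 4741 and 4287 in anti-ITGA5. Per length Vwa5a stood at 49.0 ± 1.67 FPKM in IgG and 54.3 ± 3.12 FPKM in anti-ITGA5 without fibronectin (SD, n = 3). With fibronectin the levels were 49.9 ± 1.14 and 52.0 ± 0.981 FPKM. Where Olfr920 was lower, Vwa5a was thus at a like or slightly higher level. The edgeR log2 fold change of Vwa5a was 0.15 (SE 0.0583, adjusted p = 0.0893) without and 0.06 (SE 0.0390, adjusted p = 0.309) with fibronectin. None of the neighbours within 500 kb was called lower or higher by edgeR or by DESeq2 on either coating, where edgeR called 9.79% of all genes lower and 11% higher without fibronectin, and 13.2% and 14.4% with it. Vwa5a was the one neighbour with enough counts to be tested, and it had an unadjusted p under 0.05 without fibronectin, in the higher direction. There 2 of 15 alternatives called Vwa5a higher, as given in the closing section.

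Set against Vwa5a, Olfr920 held 20.9, 28.0 and 21.7 counts per 1000 Vwa5a counts in IgG without fibronectin. In anti-ITGA5 without fibronectin it held 4.93, 5.87 and 3.33. With fibronectin the values were 20.3, 15.99 and 20.1 in IgG and 2.48, 4.64 and 4.90 in anti-ITGA5. In anti-ITGA5 the mean ratio was 4.99-fold lower without and 4.69-fold lower with fibronectin. Its numerator is the count on which Olfr920 was chosen, so the ratio is a description and supports nothing further. Whether transcripts that run on from Vwa5a reach Olfr920 was not tested, since reads between genes are not counted in the tables.

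**Figure D3:**
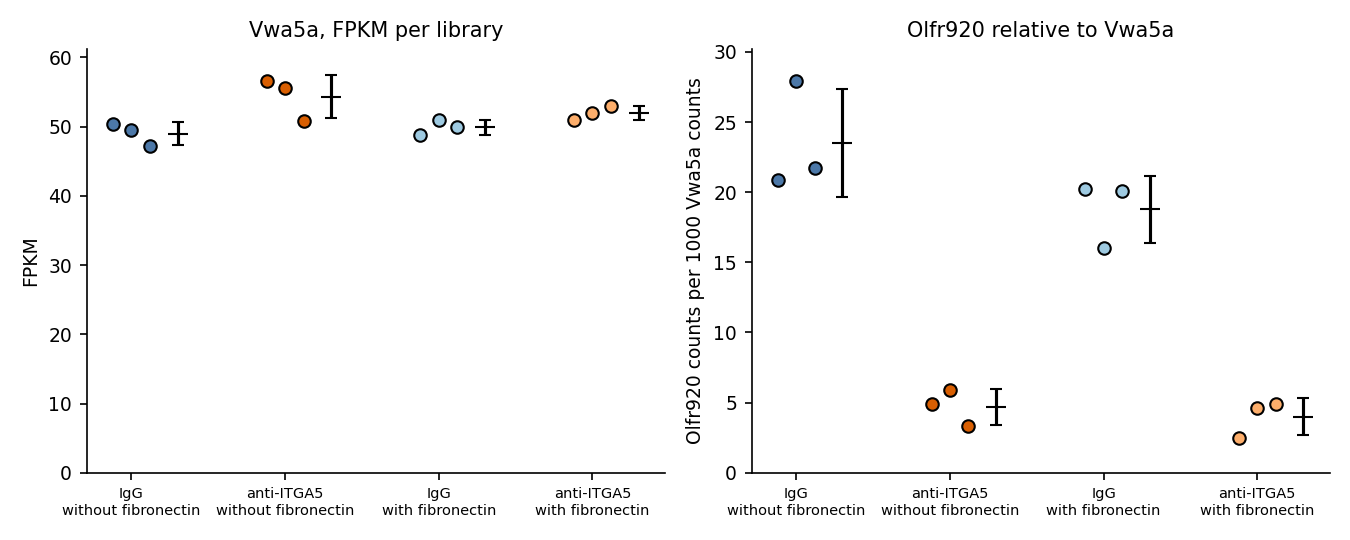
FPKM of the upstream gene Vwa5a (left) and Olfr920 counts per 1000 Vwa5a counts (right) in each library, by group. Points are libraries and bars are the mean and SD of 3. Vwa5a lies at 47.1 to 56.6 FPKM in all libraries, while the ratio is 15.99 to 28.0 in IgG and 2.48 to 5.87 in anti-ITGA5.

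On the downstream side the adjoining gene was Gm47347, an unprocessed pseudogene with 114 exonic bases that starts 2.79 kb after the end of Olfr920 on the same strand. Its counts were 1, 1 and 2 in the IgG libraries without fibronectin. On fibronectin IgG gave 3, 3 and 0 counts, against 0, 0 and 1 for anti-ITGA5. The uncoated anti-ITGA5 libraries had no count. Of its 11 counts, all but 1 were in IgG libraries, but it was too low for the main test. Its mean was 0.668 FPKM in IgG and 0 in anti-ITGA5 without fibronectin, and 0.880 and 0.177 FPKM with it. For Olfr920 these means were 0.990, 0.221, 0.802 and 0.179 FPKM. Whether counts on both genes come from the same transcripts was not tested. With every gene of at least 1 count kept, 4 neighbours including Gm47347 were tested by edgeR on each coating. None was called, with 0 at an unadjusted p under 0.05, which the few counts of Gm47347 could hardly reach. Olfr921, the nearest relative, starts 12.95 kb downstream and held 6 counts in all 12 libraries, with at most 2 in any. The other adjoining receptor, Olfr919, lies 48.6 kb upstream on the minus strand and was listed at 0. Gm8543, a processed pseudogene 314 kb downstream, held 27 counts in all. The first gene downstream with at least 10 counts in every library was Zfp202, a zinc finger gene 1432 kb away. The strand used in counting was not given in the sources used here, so transcription from the opposite strand of Olfr920 cannot be told apart from its own.

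Of 1407 olfactory receptor genes in the tables, 1281 were at 0 in every library, 126 had a count and 32 had at least 10 counts in all. Only Olfr111, Olfr920 and Olfr56 had at least 10 counts in every library. Olfr920 took 13.5% of the 5061 counts on the family, and by mean FPKM it ranked number 2 of the family in IgG without fibronectin and number 10 in anti-ITGA5 without fibronectin. With fibronectin it ranked number 3 in IgG and number 7 in anti-ITGA5. No gene of the vomeronasal families Vmn1r (211 genes) and Vmn2r (122), of the trace amine receptors (16 Taar genes) or of the taste receptors (3 Tas1r and 40 Tas2r genes) reached 10 counts in every library. Counts grow with gene length, and 94.2% of the family had a shorter exonic length than Olfr920.

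Olfr111, on chromosome 17, moved the other way from Olfr920. It held 74, 96 and 58 counts in IgG without fibronectin and 140, 201 and 137 in anti-ITGA5 without fibronectin. With fibronectin the counts were 72, 114 and 69 in IgG and 121, 157 and 107 in anti-ITGA5. Olfr111 rose by a log2 fold change of 1.15 (SE 0.290, edgeR adjusted p = 0.0179) without and 0.71 (SE 0.173, edgeR adjusted p = 0.00926) with fibronectin. It lost the call without fibronectin when IgG without fibronectin replicate 1 was left out (adjusted p = 0.0752) or replicate 3 (adjusted p = 0.0905), and over 15 alternatives its adjusted p ran from 4.5e-11 to 0.0905. Without anti-ITGA5 without fibronectin replicate 2, the library that stands apart below, its log2 fold change was 0.75 (adjusted p = 0.00773). With fibronectin the call was lost in 1 fit over all 12 libraries (adjusted p = 0.0686, 6.8e-05 to 0.0686 over the alternatives). Olfr56, on chromosome 11, overlaps several other genes, among them the interferon-inducible Ifi47 and Tgtp1, and counts on it cannot be told apart from theirs. Its log2 fold change was -0.74 (SE 0.240, edgeR adjusted p = 0.05005, just over the threshold) without and -0.39 (SE 0.208, adjusted p = 0.194) with fibronectin. Olfr112, with 316 counts the next in abundance, was not called, at 0.39 (SE 0.505) and -0.66 (SE 0.401).

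Beside Olfr920, 8 other receptor genes had enough counts to be tested in each antibody comparison, where 20.8% (without fibronectin) and 27.6% (with fibronectin) of all genes passed. Without fibronectin edgeR called 1 higher and 0 lower, and 2 had an unadjusted p under 0.05 in the lower direction, while DESeq2 called 1 higher and 0 lower. With fibronectin edgeR called 1 higher and 2 lower, and DESeq2 called 1 higher and 0 lower, with no adjusted p for Olfr115. The lower ones, named after their values were seen, were Olfr116 (log2 fold change -1.12, SE 0.315) and Olfr115 (log2 fold change -1.92, SE 0.529), which overlap each other on chromosome 17. Their edgeR adjusted p of 0.0189 and 0.0172 ran from 0.0127 to 0.293 and from 8.7e-05 to 0.0983 over the alternatives. Both were not called without IgG with fibronectin replicate 2 or anti-ITGA5 with fibronectin replicate 2, and Olfr116 also without anti-ITGA5 with fibronectin replicate 1 or with thinned counts. With fibronectin Olfr115 held 14, 42 and 19 counts in IgG and 12, 2 and 4 in anti-ITGA5. The count filter thus kept it through the IgG group, which favours a lower call, so the call of Olfr115 supports nothing further. In all, counts on the family without Olfr920 ran from 16.9 to 24.3 CPM in 11 libraries and stood at 35.7 in anti-ITGA5 without fibronectin replicate 2. That library also had the lowest total and the most genes with a count (21123), yet its Olfr920 count of 22 lay between those of the other replicates and its 1.70 CPM was the highest of its group.

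**Figure D4:**
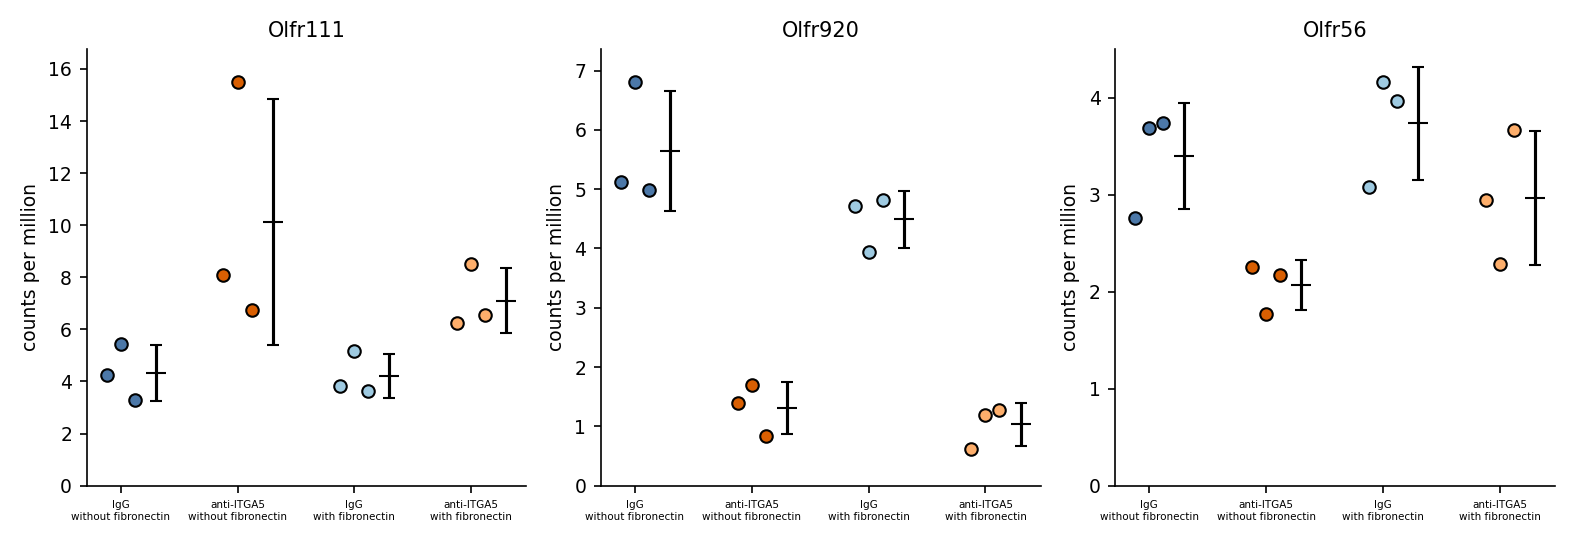
CPM of the 3 olfactory receptor genes that reached 10 counts in each library, by group. Points are libraries and bars are the mean and SD of 3, and each panel has its own vertical scale from 0. Olfr920 lies lower in all anti-ITGA5 libraries, and Olfr111 lies higher in all of them than in the IgG libraries of the same coating.

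The partners an olfactory receptor uses in the nose were present in part. Olfr920 was compared with 17 genes of olfactory signal transduction, of which 10 were tested. In anti-ITGA5 without fibronectin 1 of the 10 was higher and 0 were lower by edgeR, with 0 lower at an unadjusted p under 0.05 and 0 lower by DESeq2. With fibronectin 1 was higher and 1 lower. Of all genes tested, edgeR called 9.79% lower and 11% higher without fibronectin, and 13.2% and 14.4% with it. Slc12a2, the sodium-potassium-chloride cotransporter that loads sensory neurons with chloride, rose on both coatings (log2 fold change 0.48, SE 0.116, and 0.59, SE 0.125). The lower gene was Gnas, a stimulatory G protein subunit of most tissues, at -0.19 (SE 0.0658, edgeR adjusted p = 0.0440), and it was named after its value was seen. DESeq2 did not call Gnas (adjusted p = 0.0739), and over the alternatives its adjusted p ran from 0.0210 to 0.180. The median log2 fold change of the list was -0.02 and -0.05, beside 0.0090 and -0.0038 over all genes tested. Gnal, the olfactory G protein subunit, stood at 0.998 FPKM and adenylyl cyclase 3 (Adcy3) at 2.01 FPKM in IgG without fibronectin, and neither was called. Gnal was thus at a level like that of Olfr920 itself in IgG. The olfactory channel subunit Cnga2 was at 0 in every library, and Cnga4 had 1 count in all.

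Proteins that carry olfactory receptors to the cell surface were represented by 10 genes. Rtp1, the transporter best known for this, had 2 counts in all and Rtp2 none. Without fibronectin 6 genes were tested, of which 2 were lower and 1 higher, and with fibronectin 5 were tested, of which 1 was higher and 0 lower, with 0 lower at an unadjusted p under 0.05 and 0 by DESeq2. The shares of all genes called were those given for the signal transduction list. Reep4 rose on both coatings (log2 fold change 0.66, SE 0.0589, and 0.72, SE 0.101). The lower genes without fibronectin, named after their values were seen, were the interferon-inducible Rtp4 (log2 fold change -1.51, SE 0.183) and Reep3 (log2 fold change -0.16, SE 0.0515).

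Of 11 genes that regulate the choice of olfactory receptor genes in neurons, 8 were tested, and on each coating 2 were higher and 1 was lower. The lamin B receptor gene Lbr rose with log2 fold changes of 0.73 (SE 0.0990) and 0.83 (SE 0.0851), and Cbx5, which encodes heterochromatin protein 1α, with 0.32 (SE 0.0946) and 0.23 (SE 0.0621). Ldb1, which encodes an adaptor that brings enhancers and promoters together, fell by 0.21 on the log2 scale on each coating (SE 0.0536 and 0.0539). The transcription factor Lhx2 had 46 counts in all libraries, Ebf1 had 3 and Emx2 none. Of 9 tested genes that respond to cyclic AMP, 2 were lower without fibronectin and 4 with it, and 0 were higher by edgeR, with 1 and 0 higher at an unadjusted p under 0.05 and 0 by DESeq2. Fos fell by 0.58 (SE 0.121) and by 0.90 (SE 0.102) on the log2 scale, and Thbs1, which encodes the matrix protein thrombospondin 1, by 0.65 (SE 0.163) and 0.73 (SE 0.147). Without fibronectin DESeq2 called 1 of these 2, since Thbs1 missed the threshold there (adjusted p = 0.0512, and 3.0e-16 to 0.0895 over the alternatives). The other genes lower with fibronectin, named after their values were seen, were Sik1 (log2 fold change -0.54, SE 0.116) and Per1 (log2 fold change -0.34, SE 0.0792). The medians of this list were 0.03 and -0.21. For each of these lists the share called reads against the 20.8% and 27.6% of all genes tested. By direction, 9.79% of all genes were lower and 11% higher without fibronectin, and 13.2% and 14.4% with it.

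The cells carried the markers of macrophages, and these also moved with the antibody. All 10 macrophage markers had at least 10 counts in every library, with a summed level of 9798 to 10655 FPKM in IgG and 6707 to 8258 FPKM in anti-ITGA5 without fibronectin. With fibronectin the sums were 10423 to 10623 and 8022 to 8186 FPKM. On each coating 5 of the 10 fell and 1 rose by edgeR, where 9.79% of all genes were lower and 11% higher without fibronectin, and 13.2% and 14.4% with it. Lyz2, the lysozyme gene that makes up most of the sum, fell by 0.51 and 0.46 on the log2 scale, and Cd14, an endotoxin co-receptor, rose by 0.46 and 0.25. Mertk fell by 0.48 and 0.41 and Itgam by 0.47 and 0.31. The others that fell were Tyrobp, an adaptor of myeloid receptors, by 0.27 and 0.35, and Cd68, a lysosomal glycoprotein, by 0.20 and 0.17. Some of these calls were lost under other settings. Without fibronectin Cd68 reached an adjusted p of up to 0.101 and Tyrobp of up to 0.124, both not called when any one IgG library was left out, and Tyrobp also without anti-ITGA5 without fibronectin replicate 1. Lyz2 without fibronectin reached 0.0517 by limma. Cd14 with fibronectin reached 0.0912 and was not called without IgG with fibronectin replicate 1 or 3 or anti-ITGA5 with fibronectin replicate 1 or 2. Each of these changes was smaller than the difference of Olfr920, which follows from the choice of that gene for its large fall. Of 8 markers of olfactory neurons 2 (Gnal and Adcy3) had at least 10 counts in every library, the defining Cnga2 was at 0 and Omp was at 0.0797 to 0.270 FPKM, and their summed level was 2.31 to 3.51 FPKM across all libraries. Summed levels of the 8 neutrophil markers, of which Ly6g and Retnlg were at 0, were 2.41 to 4.23 FPKM in IgG and 2.65 to 3.70 FPKM in anti-ITGA5 without fibronectin. With fibronectin they were 3.02 to 4.52 FPKM in IgG and 1.86 to 3.00 FPKM in anti-ITGA5. Of these markers 1 was tested without fibronectin and not called, and 2 were tested with fibronectin, where Mpo was lower by edgeR (log2 fold change -0.94, adjusted p = 0.0499, 0.0499 to 0.147 over the alternatives). Mpo was named after its value was seen, and DESeq2 gave it no adjusted p. Its mean was 0.302 FPKM in IgG and 0.155 FPKM in anti-ITGA5 with fibronectin. Without fibronectin, where Mpo was too low to be tested, the means were 0.111 and 0.141 FPKM. The count filter may thus have kept Mpo through the IgG group, so its call supports nothing further. Summed levels of fibroblast (6 genes, 0.172 to 0.378 FPKM) and endothelial markers (5 genes, 2.24 to 3.46 FPKM) were low. The part of any of these cell types in the Olfr920 difference was not tested. Mast cell, lymphocyte, erythroid and dendritic cell markers were each below 1 FPKM in sum in every library.

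The genes whose levels most resembled those of Olfr920 were sought among the 11685 genes that reached 10 counts in each library, by Pearson's r of log2 CPM over the 12 libraries. They were Psme4, a proteasome activator (r = 0.975), Prmt9, an arginine methyltransferase (r = 0.973), Kdelc2, an endoplasmic reticulum glycosyltransferase (r = 0.973), Fbxl20, an F-box protein (r = 0.966), and Zfp397, a zinc finger protein (r = 0.965). These values are descriptive, since the libraries share the antibody groups and most of each r comes from the difference between them. The differences were also far smaller than that of Olfr920, which was chosen for its large fall. Psme4 stood at 21.1 ± 0.504 FPKM in IgG and 16.4 ± 0.818 FPKM in anti-ITGA5 without fibronectin, and at 20.5 ± 0.392 and 16.4 ± 0.492 FPKM with fibronectin (SD, n = 3). With the group means removed, other genes came out on top, namely Asb7 (r = 0.942), Faap100 (r = 0.906) and Gm47827 (r = 0.889). The neighbour Vwa5a had r = -0.53 over the libraries and 0.66 for deviations from the group means, over counts from the same libraries.

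**Figure D5:**
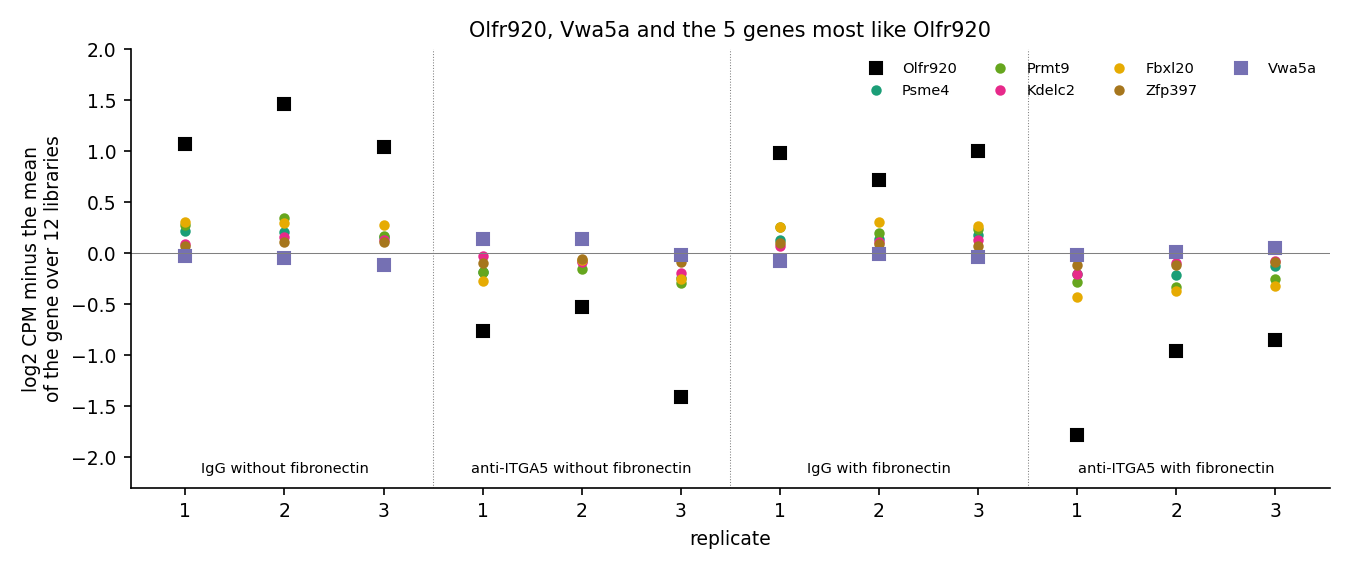
Log2 CPM of Olfr920, its neighbour Vwa5a and the 5 genes with the highest Pearson's r to Olfr920 (r = 0.965 to 0.975, n = 12), each minus its own mean over all libraries. Points are libraries in their 4 groups. Olfr920, which was chosen for its large fall, swings far more than the genes that follow it, and Vwa5a stays near 0.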

How the data were processed

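Members and gene lists were chosen with earlier results of these data known. The authors removed adapter and low-quality reads, aligned read pairs of 150 bases with TopHat2 2.0.9 to GRCm38 and counted them per Ensembl gene with HTSeq 0.6.1; the submitters' notes also name Cufflinks 2.1.1. The strand setting and the annotation release are not given in the sources used here. The deposited tables hold raw counts and FPKM for 12 libraries. The deposited FPKM equalled count divided by gene length and 1 library total within 0.1% for all genes with a count. Counts were tested with edgeR 4.0.16 in R 4.3.3 (filterByExpr with minimum count 10 and total 15, TMM scaling, quasi-likelihood test, Benjamini-Hochberg adjustment over all genes tested, threshold 0.05) and checked on simulated data. SE was the log2 fold change divided by the square root of F. Antibody comparisons used 6 libraries each, fibronectin comparisons 6, and the interaction 12. Olfr920 was given no p between antibodies or for the interaction, which was planned as a test. Sequence likeness came from BLAST 2.17.0 and Biopython 1.88 against GENCODE M21 transcripts. Named were Olfr920, adjoining genes, neighbours within 500 kb with at least 10 counts in all and the nearest abundant gene on each side, the 3 most abundant receptors and those with at least 10 counts in every library, the 3 closest relatives, the genes most like it, and list members called on both coatings (at most the 4 largest per list; others were named after their values were seen). Other settings were DESeq2 1.42.0, its size factors, total counts, other filters, 1 fit over all libraries, a replicate block, thinned counts, limma 3.58.1 on log2(FPKM + 1) or log2(FPKM + 0.1), other windows, and each library left out.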

Additional observations from a re-analysis of the deposited data

How the results depend on the processing

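The lower level of Olfr920 in anti-ITGA5 kept its direction under all 15 alternatives on each coating. On log2(FPKM + 1), which compresses low genes, it was -0.70 without and -0.61 with fibronectin, and on log2(FPKM + 0.1) it was -1.77 and -1.71. With each library left out in turn it ran from -2.38 to -1.93 without and from -2.34 to -1.89 with fibronectin. The fibronectin comparisons were not called under any alternative that gave an adjusted p (DESeq2 gave none in IgG), with values from -0.39 to -0.14 in IgG (adjusted p from 0.321 to 0.918) and from -0.55 to -0.041 in anti-ITGA5. The interaction had no stable sign. It was -0.0039 with the replicate number as a block and -0.21 with counts thinned to the smallest library, and ran from -0.24 to 0.29 with each library left out. The block changed neither fibronectin call on Olfr920. Without fibronectin it gave an edgeR adjusted p of 0.00060 for Olfr111 and 0.0557 for Vwa5a in the antibody comparison. Same-numbered libraries shared deviations weakly, with r from 0.032 to 0.087 and from 0.064 to 0.149 for the antibody without and with fibronectin, and from 0.055 to 0.138 and from -0.020 to 0.135 for fibronectin in IgG and in anti-ITGA5. Not every pair exceeded 0.1, so the numbers were not taken to pair the libraries, though in the first 3 of these comparisons each exceeded every r between different numbers (at most 0.0048). The count of neighbours higher in anti-ITGA5 without fibronectin was 1 in place of 0 with total counts (Vwa5a 0.20, adjusted p = 0.0453) and with all 12 libraries in 1 fit (0.15, adjusted p = 0.0308), within a range of 0.0308 to 0.295 over 15 alternatives. The call on Olfr111 was lost in 4 of 15 alternatives without fibronectin (adjusted p up to 0.0905) and in 1 of 15 with it, and Olfr56 was called lower in 2 of 15 without fibronectin. Counts of 12 to 24 in anti-ITGA5 limit the precision of each Olfr920 value.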
